A study of Mus musculus with 39 samples.

Results

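The 31 genes described here encode lysosomal proteases, lipid- and glycan-degrading enzymes, their activators, lysosomal membrane and transport proteins, and the transcription factor Tfeb. They are 31 of the 24100 genes counted in the mouse cerebellar libraries of this study. They were chosen by their levels: genes were listed by name with the counts per 1e6 (CPM) of every sample group in view, to set the rise in vivo beside the rise between days in vitro (DIV) 2 and 5. Both rises are therefore described here without a test. Tests are given for other comparisons, whose levels were also in view at the choice, so they are not independent of it. All 31 were matched in the table by Entrez gene number, and all 31 passed the filter on low counts in every fit.

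The study followed granule cells, the small glutamatergic neurons of the cerebellum, as they leave the cell cycle and mature. Translating ribosome affinity purification (TRAP) collects RNA on GFP-tagged ribosomes from the cells that express a transgene. Math1 TRAP came from granule cell precursors isolated at postnatal day 7 (P7) from Tg(Atoh1-Egfp-L10a) mice (4 libraries). Neurod1 TRAP came from whole cerebellar lysates of Tg(NeuroD1-Egfp-L10a) mice at P7, P12 and P21 (5 libraries each), with 1 TRAP input library at each age. Granule cells purified from C57Bl/6J pups at P6 to P7 were sampled at DIV0 (2 libraries), after culture with DMSO at DIV2 and at DIV5 (2 libraries each), and at DIV5 with 100 nM UNC1999, an inhibitor of the H3K27 methyltransferases EZH2 and EZH1 (2 libraries). The TRAP, input, DMSO and UNC1999 mice were all of strain C57Bl/6J. Further DIV5 cultures came from P7 mice of genotype Ezh1(wt/wt);Atoh1-Cre (Ezh1 wt, 5 libraries) and Ezh1(cKO/cKO);Atoh1-Cre (Ezh1 cKO, 4 libraries), whose strain the labels do not give. Atoh1-Cre is present in both genotypes and is driven in granule cell precursors, so other cells of those cultures are not its target. The labels do not say whether replicates came from separate animals or cultures, so p-values measure the spread between these libraries, which may be technical.

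Lysosomes are acidic organelles in which proteases, lipases and glycosidases break down material delivered by endocytosis and autophagy. Most of the soluble enzymes are made as precursors, tagged with mannose 6-phosphate in the Golgi and activated by the acid that the V-ATPase pumps in. TFEB and its relatives bind the CLEAR element, a palindrome around an E-box, in the promoters of many lysosomal genes. Loss of single enzymes causes storage diseases in which cerebellar neurons often degenerate, among them the neuronal ceroid lipofuscinoses (PPT1, TPP1, CLN3, CTSD, CTSF). Microglia and macrophages are especially rich in lysosomal proteases.

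The promoters of the members were searched for the 8 middle bases of the CLEAR palindrome, TCACGTGA, and for the E-box CACGTG within it. RefSeq promoters (GRCm38.p6, 250 bases before to 50 after an annotated start) were matched for 27 of the 31 members, and not for Ctsb, Ctsh, Asah1 and Npc1. A gene can have several such starts (32851 windows in all), and a motif in any window was counted. TCACGTGA, which reads the same on both strands, occurred in 4 of the 27 (14.8%), against 1.12% of the 27025 genes with a promoter in the table. CACGTG, also palindromic and counted wherever TCACGTGA occurs, was found in 11 of the 27 (40.7%), against 8.09% of all genes. Besides Ctsa, Ctsd, Mcoln1 and Cln3, which hold the longer motif, these were Lamp1, Glb1, Naglu, Gaa, Lgmn, Ctsl and Ctsf. The sites of the 4 genes with the longer motif (30 bases each), and the window of Lamp1, which holds 4 E-boxes, are printed 5′ to 3′ on the gene's strand, with the motif letters in capitals. All printed sites lie before the annotated start on which their window was built. For Ctsa and Cln3 that start lies inside the RefSeq span of the gene (chr2:164832872-164841032 and chr7:126571207-126585817), so it is not the outermost start. Ctsa holds a further TCACGTGA that begins 4 bases after its start, and Ctsd, Mcoln1 and Cln3 each hold 1 further CACGTG upstream, none of which is printed. The Lamp1 window touches no annotated UTR, whereas the other 4 also fall in a UTR annotated by GENCODE, whose kind, strand and gene were not checked. A match is a description of letters, not of a bound site.

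Ctsa, chr2:164833743-164833772, plus strand: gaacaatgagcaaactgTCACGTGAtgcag
Ctsd, chr7:142387908-142387937, minus strand: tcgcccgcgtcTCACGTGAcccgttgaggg
Mcoln1, chr8:3500462-3500491, plus strand: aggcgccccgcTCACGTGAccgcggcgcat
Lamp1, chr8:13159080-13159160, plus strand: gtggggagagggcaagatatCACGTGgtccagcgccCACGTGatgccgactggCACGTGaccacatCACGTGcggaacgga
Cln3, chr7:126583340-126583369, minus strand: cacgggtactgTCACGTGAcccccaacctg

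The printed genes were all higher at P21 than at P7, and all but Mcoln1 were higher at DIV5 than at DIV2, by unlike amounts. Ctsd was higher at P21 than at P7 and at DIV5 than at DIV2, by 2.11 ± 0.13 and 2.23 ± 0.05 on the log2 scale (fold change ± SE, as in all such pairs of values here). Mcoln1 was higher at P21 (1.85 ± 0.14) and level from DIV2 to DIV5 (-0.09 ± 0.10), and Cln3 changed by 0.68 ± 0.14 and 0.95 ± 0.14. In the same order, the log2 fold changes were 1.57 and 1.82 for Ctsa and 0.74 and 1.19 for Lamp1.

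The libraries held 12.1 M to 38.5 M counts (M, 1e6 counts). Neurod1 TRAP carried higher levels of 6 of 8 mature granule cell markers than input (Cbln1 by 1.65 ± 0.10 log2), and lower levels of all 12 microglia, 11 astrocyte and Bergmann glia, and 12 vascular and meningeal markers. The summed level of the microglia markers, none of them at 0 in every library of a group, was 5.40 to 18.95 CPM over the TRAP libraries and 54.4 to 101 CPM in the inputs. In cultures it was 95.9 and 97.4 CPM at DIV0, 106 and 100.2 CPM at DIV2, and 806 and 820 CPM at DIV5 with DMSO. The 9 Ezh1 libraries fell into sets that the genotype does not explain. Replicates 1 and 2 of both genotypes held 405 to 585 CPM of microglia markers, and replicates 3 to 5 of Ezh1 wt with 3 and 4 of Ezh1 cKO held 39.3 to 69.0 CPM. The Ezh1 transcript itself was 34.8 to 42.6 CPM in the 5 Ezh1 wt libraries and 29.2 to 32.0 CPM in the 4 Ezh1 cKO libraries, so the groups did not overlap but most of the transcript was still counted (the labels do not say which exons are removed). CPM are on a TMM scale shared by all 39 libraries and are not corrected for gene length, so levels are compared within a gene only. They leave out genes that are blank in the Ezh1 libraries, so every sum of the oligodendrocyte lineage covers only 11 of its markers.

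**Figure D1:**
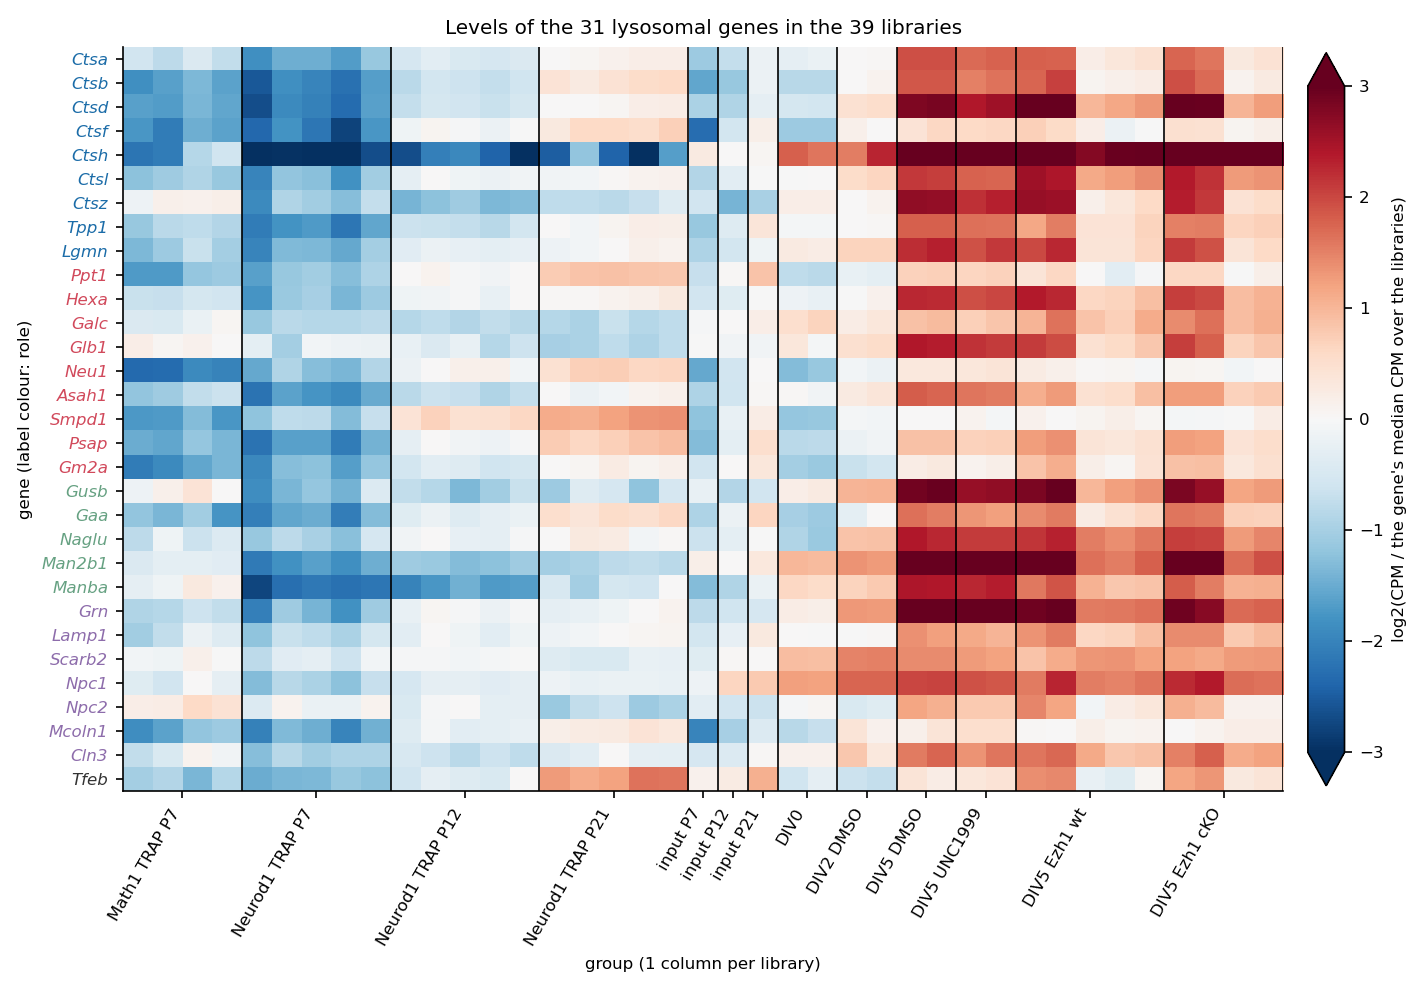
Level of each of the 31 genes (rows, label colour by role) in each of the 39 libraries (columns, by group), as log2 of CPM over the gene's median CPM, with the colour scale ending at 3 and at -3. Most rows go from blue at P7 to pale at P21 in Neurod1 TRAP, and red is deepest at DIV5 with DMSO or UNC1999 and in replicates 1 and 2 of each Ezh1 genotype.

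In Neurod1 TRAP, 28 of the 31 genes had a log2 fold change above 0 at P21 against P7, by sign alone and with Galc at only 0.01. Npc2 and Glb1 fell, and Scarb2 was level (-0.01). The median log2 fold change was 1.38 for the members and -0.05 for all 14759 genes fitted, and 20 members changed by at least 1 log2 unit upward. By the call rule (edgeR quasi-likelihood, Benjamini-Hochberg adjusted p under 0.05), 26 members were higher, where 38.9% of all genes were, and 2 were lower, where 42.5% of all genes were. As the choice of members used this contrast, nothing is read from those counts. Most of the change came early, and the step from P12 to P21 exceeded that from P7 to P12 in only 4 members (Ctsz, Manba, Cln3 and Tfeb). At the earlier step 24 members were called higher (31.5% of all genes) and 0 lower (36.7% of all genes), and at the later step 18 higher (32.4%) and 3 lower (32.7%).

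All 9 proteases were higher at P21. Ctsf, a cysteine cathepsin, stood at 11.8, 17.4, 13.6, 8.91 and 18.2 CPM at P7 and at 73.7, 91.9, 91.05, 87.96 and 99.1 CPM at P21, a log2 fold change of 2.61 ± 0.15. Ctsb, an abundant cysteine cathepsin with endo- and exopeptidase activity, went from 65.4, 106, 95.5, 80.9 and 120.5 CPM to 503, 460.2, 514, 556 and 571 CPM (2.42 ± 0.12). For both genes every P12 library lay above every P7 library and below every P21 library. Ctsd, the main aspartic protease of lysosomes, rose by 2.11 ± 0.13, and Tpp1, the tripeptidyl peptidase lost in late infantile ceroid lipofuscinosis, by 1.87 ± 0.11. Ctsa, the serine carboxypeptidase that also protects beta-galactosidase and neuraminidase, rose by 1.57 ± 0.10. Ctsl and Lgmn, an asparaginyl endopeptidase that processes other cathepsins, gained 1.38 ± 0.13 and 1.36 ± 0.13, nearly all of it by P12. The carboxypeptidase Ctsz changed little (0.40 ± 0.15), with P7 values of 7.36, 14.9, 13.6, 11.4 and 16.9 CPM overlapping P21 values of 16.4, 16.5, 15.96, 17.3 and 21.4 CPM. Ctsh, an aminopeptidase, was close to the detection limit in TRAP, at 0.153 to 0.411 CPM at P7 and 0.264 to 1.14 CPM at P21, so its fold change (1.25 ± 0.43) rests on few counts.

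Among the sphingolipid and fatty acyl genes, 7 of 9 rose by more than 1 log2 unit. Psap, the precursor of the saposins that present lipids to their hydrolases, stood at 142, 216, 213, 156 and 248 CPM at P7, 556, 664, 617, 598 and 647 CPM at P12 and 1132, 1019, 1096, 1202 and 1260.0 CPM at P21 (2.49 ± 0.12). Smpd1, acid sphingomyelinase, went from 35.5, 48.2, 47.4, 33.4 and 50.8 CPM to 178, 172, 188, 208 and 212 CPM (2.10 ± 0.11). The ages did not overlap for either gene. Ppt1, a palmitoyl-protein thioesterase, rose by 1.96 ± 0.12, Neu1, the lysosomal sialidase, by 1.76 ± 0.12, and Asah1, acid ceramidase, by 1.73 ± 0.12. Gm2a and Hexa, the activator and the alpha subunit that act together on the ganglioside GM2, rose by 1.48 ± 0.13 and 1.32 ± 0.11. Galc, which cleaves the myelin lipid galactosylceramide, stayed between 10.4 and 14.4 CPM in all 15 Neurod1 libraries (0.01 ± 0.10). Glb1, beta-galactosidase, went the other way, from 8.85, 5.28, 10.2, 9.64 and 9.59 CPM at P7 to 5.41, 5.55, 6.36, 5.69 and 6.35 CPM at P21 (-0.63 ± 0.15). P7 replicate 2 was the only P7 library of Glb1 below the P21 range.

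The 5 enzymes of glycogen, glycans and glycosaminoglycans spread widely. Gaa, which digests glycogen, rose by 2.12 ± 0.13, from 10.8 to 18.4 CPM at P7 to 58.6 to 69.6 CPM at P21. Manba, beta-mannosidase, rose by 1.77 ± 0.18, and most of that came after P12 (1.20 ± 0.17). Naglu and Man2b1, which trim heparan sulfate and mannose-rich glycans, rose by 0.96 ± 0.14 and 0.84 ± 0.11. Gusb, beta-glucuronidase, overlapped between ages, at 3.63, 5.07, 5.91, 4.95 and 9.96 CPM at P7 and 6.17, 10.1, 9.29, 5.73 and 9.34 CPM at P21.

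Of the membrane and transport genes, Mcoln1, the calcium channel TRPML1, had the largest rise (1.85 ± 0.14), from 14.01, 22.5, 20.6, 14.3 and 20.8 CPM to 63.7, 66.7, 68.1, 75.3 and 70.8 CPM. Grn, whose product progranulin is delivered to lysosomes with prosaposin, had reached its level by P12 (1.31 ± 0.14) and did not move after it (-0.04 ± 0.14). Lamp1, the most abundant glycoprotein of the lysosomal membrane, Npc1, the cholesterol exporter, and Cln3 rose by 0.74 ± 0.13, 0.72 ± 0.11 and 0.68 ± 0.14. Scarb2, the receptor that carries glucocerebrosidase to lysosomes, was 67.2 ± 12.7 CPM (SD, n = 5) at P7 and 69.3 ± 5.64 CPM (SD, n = 5) at P21. Npc2, the soluble cholesterol carrier that hands cholesterol to NPC1, fell from 62.2, 89.1, 72.5, 72.1 and 89.4 CPM to 38.5, 49.6, 54.2, 39.2 and 43.2 CPM (-0.83 ± 0.12), with no overlap. The 2 partners of cholesterol export thus moved in opposite directions.

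Tfeb had the highest fold change of the 31 by point estimate, within its error of that of Ctsf. It stood at 3.02, 3.24, 3.30, 3.84 and 3.56 CPM at P7, 5.67, 6.98, 6.49, 6.12 and 8.41 CPM at P12 and 20.3, 18.2, 19.5, 25.9 and 25.5 CPM at P21 (2.63 ± 0.14). The ages did not overlap, and the later step (1.68 ± 0.13) was larger than the earlier (0.95 ± 0.14), the reverse of the order seen for most enzymes.

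**Figure D2:**
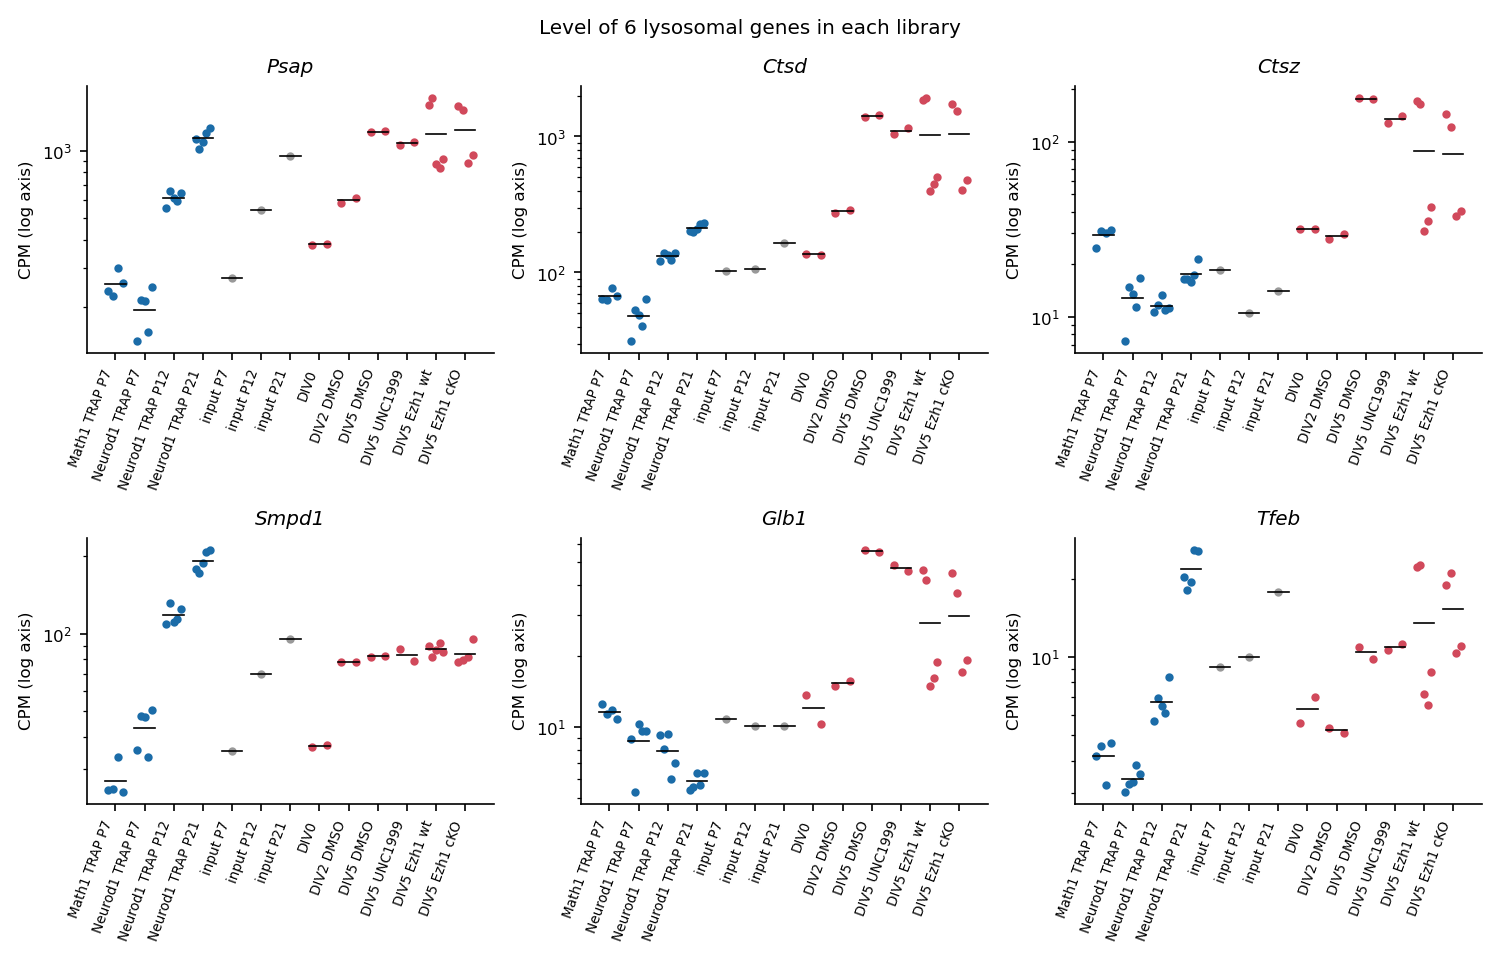
CPM (log axis) of Psap, Ctsd, Ctsz, Smpd1, Glb1 and Tfeb in each library (points, blue for TRAP, grey for input, red for cultures) with the group mean (line). Psap, Ctsd, Smpd1 and Tfeb climb from P7 to P21 in Neurod1 TRAP, Smpd1 stays flat from DIV2 on, and the Ezh1 groups split in Psap, Ctsd, Ctsz, Glb1 and Tfeb.

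The inputs, with 1 library per age and no test, gave the same picture at a smaller size, although their levels too were in view at the choice. The ratio of P21 to P7 was above 1 in 26 of the 31 members and at least 1.5 in 20, where 24.8% of all genes reached that ratio, and no member fell by that factor, where 28% of all genes did. The median ratio was 1.83 for the members and 0.965 for all genes, against 2.69 for the members in Neurod1 TRAP. Psap went from 272 to 945 CPM and Ctsf from 12.3 to 69.0 CPM. Tfeb differed most between the kinds of RNA, at 9.20 and 17.8 CPM in the inputs (ratio 1.93) against a ratio of TRAP means of 6.45. Ctsz, Gusb, Ctsh, Glb1 and Npc2 were lower in the P21 input than in the P7 input. The microglia marker sum in the inputs was 101 CPM at P7 and 63.7 CPM at P21.

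From DIV2 to DIV5 in DMSO, 28 members were higher, with a median log2 fold change of 1.41 for the members and -0.05 for the 15978 genes fitted. By the call rule 28 were higher, where 31.1% of all genes were, and Scarb2 alone was lower, where 35.7% of all genes were. The call of Scarb2 (-0.17 ± 0.05) ended with library-size scaling (-0.03), DESeq2 (-0.14) and without DIV2 replicate 1 (-0.12) or 2 (-0.08). This contrast also chose the members, so the counts are a description. The proteases led. Ctsz went from 27.8 and 29.9 CPM to 177 and 174 CPM (2.51 ± 0.07), Ctsh from 7.55 and 12.8 to 63.1 and 53.8 CPM (2.47 ± 0.22), and Ctsd from 275 and 288 to 1397 and 1426 CPM (2.23 ± 0.05). In each the libraries of both days lay far apart. Hexa, Grn, Man2b1, Ctsa, Gusb and Glb1 followed with log2 fold changes of 1.77 to 2.09. At the low end, Smpd1 was 77.6 and 77.6 CPM at DIV2 and 81.5 and 82.2 CPM at DIV5, and Mcoln1 was 74.3 and 61.6 and then 62.6 and 74.3 CPM. Npc1, Ctsf and Neu1 changed by only 0.18 ± 0.05, 0.34 ± 0.07 and 0.34 ± 0.07.

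Markers of several other cell types moved with this rise. All 12 microglia markers were higher at DIV5 than at DIV2 (median log2 fold change 2.83), as were all 11 astrocyte and Bergmann glia markers (0.93) and 9 of 12 vascular and meningeal markers (1.505). Their sums went from 106 and 100.2 to 806 and 820 CPM, from 1136 and 1138 to 2436 and 2451 CPM, and from 3176 and 5290 to 11990 and 13390 CPM. Other lists held genes that went both ways. The largest fall and rise were Sox10 (-1.10 ± 0.18) and Pdgfra (1.76 ± 0.11) in the oligodendrocyte lineage and Pax2 (-1.49 ± 0.12) and Lgi2 (0.88 ± 0.14) in GABAergic interneurons. They were Car8 (-0.23 ± 0.18) and Slc1a6 (2.39 ± 0.25) for Purkinje cells and Neurod1 (-1.16 ± 0.05) and Etv1 (1.17 ± 0.10) for mature granule cells. In Neurod1 TRAP from P7 to P21, 2 of 11 microglia markers were called higher and 1 lower, and their sum was 5.40 to 17.1 CPM at P7 and 8.28 to 18.95 CPM at P21. Other lists did move with the in vivo rise: 7 of 8 Purkinje markers were higher at P21 (sums of 223 to 314 and 970.4 to 1166 CPM, Pvalb by 3.35 ± 0.20), as were 8 of 12 of the oligodendrocyte lineage with 3 lower (345.1 to 449.6 and 596 to 941 CPM, without overlap) and 4 of 8 GABAergic interneuron markers with 2 lower (96.2 to 146 and 165 to 211 CPM, without overlap). Mature granule cell markers went from 4870 to 5755 CPM to 24960 to 27710 CPM, while the sums of astrocyte (4 higher, 4 lower of 11) and vascular markers (2 lower of 12) overlapped between the ages. In bulk RNA, more cells of a type and more RNA per cell cannot be told apart, and the part of these cells in the members' rise was not tested.

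The 2 rises were not ordered alike. Across the 31 members the log2 fold changes of P21 against P7 and of DIV5 against DIV2 had a Pearson r of -0.11 and a Spearman rho of -0.15, given as a description over genes that are not independent, from fits that share no library. The change was larger in culture in 16 members and larger in vivo in 15. These are unlike measures. One is of ribosome-bound RNA of tagged cells from P7 to P21, and the other of RNA of whole cultures from DIV2 to DIV5. The culture side also leaves out the step from DIV0 to DIV2, in which Ctsf, Neu1, Smpd1 and Mcoln1 rose, as given below. Glb1, Npc2 and Ctsz stood out on the culture side, by 2.4, 2.28 and 2.11 log2 units, and Gusb by 1.39. Ctsf, Smpd1, Mcoln1, Tfeb, Psap and Neu1 stood out on the in vivo side, by 2.27, 2.11, 1.94, 1.74, 1.57 and 1.41 log2 units. Ctsd, Ctsl, Lgmn, Manba and Tpp1 changed about equally, with the 2 changes within 0.20 log2 units of each other. Scarb2, which rose in neither (-0.01 and -0.17), was within that limit too.

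**Figure D3:**
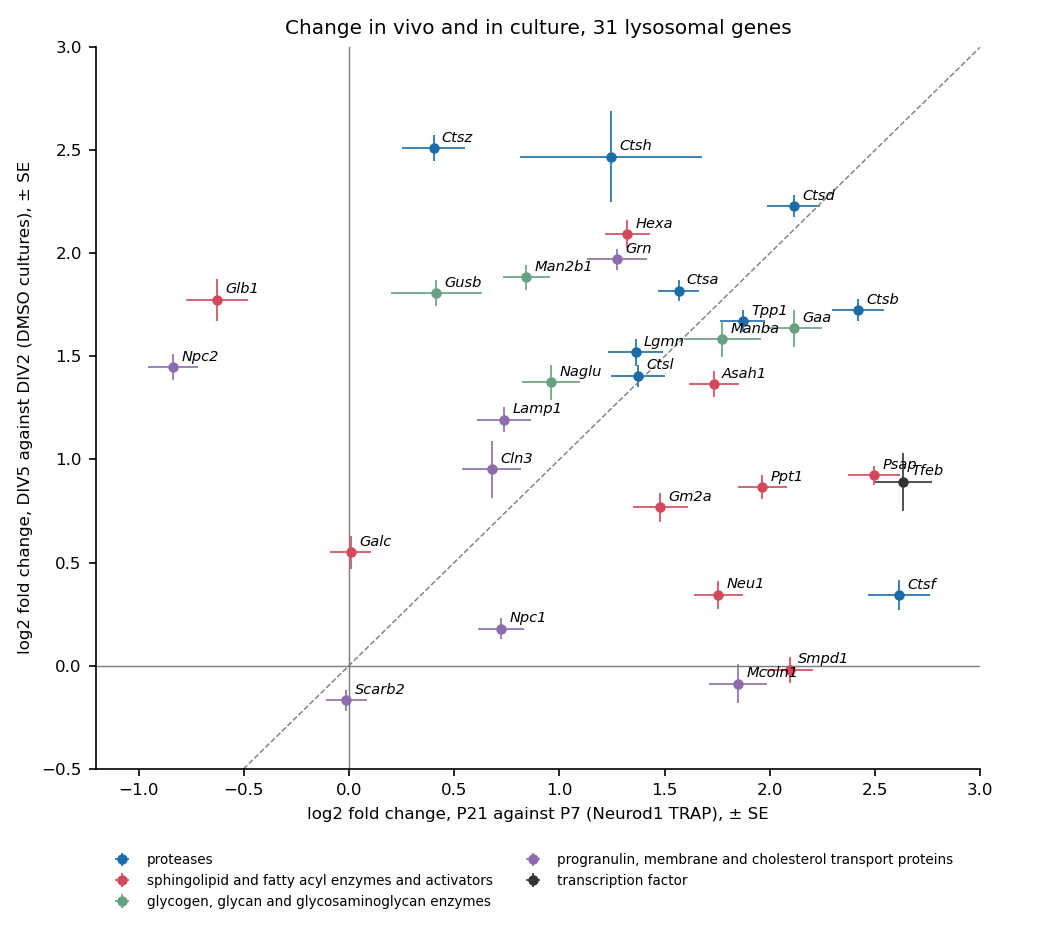
Log2 fold change of each gene at P21 against P7 in Neurod1 TRAP (x axis) and at DIV5 against DIV2 in DMSO cultures (y axis), with SE bars, coloured by role; the dashed line marks equal change. Glb1, Npc2 and Ctsz lie far above the line, and Ctsf, Smpd1, Mcoln1 and Tfeb far below it.

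The comparison of Neurod1 TRAP with input asks which members are on the ribosomes of Neurod1-expressing cells rather than in the whole tissue. With age as a term, 3 members were higher in Neurod1 TRAP (36.6% of all genes were) and 12 were lower (41.2% of all genes were), so neither share of the members exceeded the background. The median log2 fold change was -0.21 for the members and -0.07 for all genes. The 3 higher genes were Smpd1 (0.63 ± 0.13, adjusted p = 0.00021), Mcoln1 (0.55 ± 0.12, adjusted p = 0.00044) and Neu1 (0.49 ± 0.12, adjusted p = 0.00071). When libraries were scaled by total counts alone, which moved the median of all genes to -0.46, none of these was called (0.24, 0.16 and 0.10) and 25 members were lower. Without the P7 input, Ctsb, Grn and Ctsf were also higher, 6 in all, and 9 were lower.

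Several enzymes were much lower on these ribosomes. Ctsh was 3.11, 2.60 and 2.72 CPM in the inputs and never above 1.14 CPM in the 15 TRAP libraries (-2.72 ± 0.28, adjusted p = 5.2e-08). Man2b1 was 13.4 to 16.6 CPM in the inputs and 3.08 to 7.95 CPM in TRAP (-1.49 ± 0.12, adjusted p = 2.7e-09). For both genes every TRAP library lay below every input. Npc1 (-0.98 ± 0.09), Galc (-0.93 ± 0.08), Manba (-0.73 ± 0.17), Tfeb (-0.67 ± 0.20), Gm2a (-0.58 ± 0.12) and Glb1 (-0.53 ± 0.15) were lower as well, with Tpp1, Asah1, Cln3 and Gaa between -0.37 and -0.47. The calls of Tfeb, Asah1 and Gaa ended without the P7 input and that of Glb1 without the P21 input, and the other 8 held under all 21 alternatives. Without the P7 input the members' median was -0.07. The other 16 members were not called in either direction. All 12 microglia markers were lower in TRAP too, with sums of 54.4 to 101 CPM in the inputs and 5.40 to 18.95 CPM in the 15 TRAP libraries (Laptm5 by -3.32 ± 0.22, Trem2 by -2.91 ± 0.23), as were all 12 oligodendrocyte lineage, 8 Purkinje and 8 GABAergic interneuron markers, and their part in the members' difference was not tested. Across the 31 members the TRAP to input and the DIV5 to DIV2 log2 fold changes had r = -0.38 and rho = -0.19, again as a description from fits without a shared library.

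At P7, Neurod1 TRAP held less of most members than Math1 TRAP. In this test, 24 of 31 were lower, against 35.8% of all genes, and 2 were higher, against 36.5% of all genes, with medians of -0.47 for the members and 0.01 for all genes. The higher genes were again Neu1 and Smpd1. Neu1 was 9.73, 9.78, 13.1 and 12.2 CPM in Math1 TRAP and 16.7, 25.9, 20.1, 18.8 and 26.7 CPM in Neurod1 TRAP (0.94 ± 0.13, adjusted p = 1.7e-06), and Smpd1 24.7, 25.04, 33.3 and 24.3 and 35.5, 48.2, 47.4, 33.4 and 50.8 CPM (0.65 ± 0.12, adjusted p = 5.7e-05). The groups did not overlap in either gene, although the highest Math1 library of Smpd1 (33.34 CPM) lay just under the lowest Neurod1 library (33.35 CPM). Both were called under all 16 alternatives. The lines, the starting material (isolated precursors or whole lysate) and the cell stage change together here and cannot be told apart, and the P7 Neurod1 libraries are also those of the rise to P21.

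All 9 proteases and all 5 glycan enzymes were lower in Neurod1 TRAP at P7, although Ctsb, Ctsf, Ctsl, Lgmn, Gaa and Naglu, with Psap and Glb1, lost their call under 1 to 6 of the 16 alternatives. The other 16 lower members kept it under all 16. Manba was 5.78, 6.43, 8.52 and 7.63 CPM in Math1 and 1.04, 1.45, 1.58, 1.47 and 1.55 CPM in Neurod1 TRAP (-2.34 ± 0.19, adjusted p = 4.8e-10), and Ctsz 24.9, 30.8, 30.2 and 31.3 and 7.36, 14.9, 13.6, 11.4 and 16.9 CPM (-1.23 ± 0.16, adjusted p = 5.9e-07). Neither gene overlapped between the groups. Man2b1 (-1.45 ± 0.12), Gusb (-1.31 ± 0.23), Tpp1 (-0.99 ± 0.11), Asah1 (-0.92 ± 0.12) and Ctsa (-0.91 ± 0.10) were also clearly lower, and Ctsh (-1.97 ± 0.45) was lower at levels of 0.565 to 1.71 CPM in Math1 TRAP. Ppt1, Gm2a, Lamp1, Mcoln1 and Tfeb were not called. Ppt1 and Gm2a became higher (0.28 and 0.38) without Neurod1 replicate 1, which gave 4 higher genes in place of 2. Of the markers of other cells, 10 of 12 vascular and meningeal ones were lower in Neurod1 TRAP (sums of 63.7 to 114 CPM in Math1 and 25.6 to 43.6 CPM in Neurod1 TRAP), and 6 of 11 astrocyte markers were lower and 2 higher. All 8 Purkinje markers were higher in Neurod1 TRAP (median 3.58, sums of 29.4 to 57.01 and 223 to 314 CPM), as were 6 of 8 GABAergic interneuron markers with 1 lower (34.8 to 53.6 and 96.2 to 146 CPM) and 7 of 12 of the oligodendrocyte lineage with 2 lower (302 to 347 and 345.1 to 449.6 CPM). Microglia sums overlapped (7.29 to 11.6 and 5.40 to 17.1 CPM). The part of these cells in the members' differences was not tested.

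In the first days of culture most members rose. From DIV0 to DIV2, 24 of the 31 were higher (36.4% of all genes were) and Npc2 and Galc were lower (35% of all genes were), with medians of 0.54 for the members and 0.02 for all genes. The DIV2 libraries are shared with the rise to DIV5, so the 2 steps are given side by side and not correlated. Naglu rose most, from 5.29 and 4.57 to 17.9 and 18.4 CPM (1.95 ± 0.11, adjusted p = 1e-09). Ctsf (1.24 ± 0.08), Grn (1.16 ± 0.05), Neu1 (1.15 ± 0.07), Smpd1 (1.14 ± 0.07), Ctsd (1.11 ± 0.05) and Mcoln1 (1.08 ± 0.10) followed.

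Ctsf, Neu1, Smpd1 and Mcoln1 had thus made most of their change in culture by DIV2. Smpd1 was 36.5 and 36.96 CPM at DIV0, 77.6 and 77.6 CPM at DIV2 and 81.5 and 82.2 CPM at DIV5. Mcoln1 was 32.04 and 35.3, 74.3 and 61.6 and 62.6 and 74.3 CPM in the same order. Ctsz had the opposite course, at 31.9 and 31.8 CPM at DIV0 and 27.8 and 29.9 CPM at DIV2 (-0.08 ± 0.07, adjusted p = 0.31) before its rise to DIV5. Microglia marker sums were 95.9 and 97.4 CPM at DIV0 and 106 and 100.2 CPM at DIV2 (6 of 12 markers higher, 4 lower). The vascular and meningeal sum went from 746 and 759 CPM to 3176 and 5290 CPM although 8 of its 12 markers were lower and 3 higher, the astrocyte sum from 901 to 914 CPM to 1136 to 1138 CPM (5 of 11 higher, 5 lower), and that of the oligodendrocyte lineage from 636 to 638 CPM to 315 to 324 CPM (1 of 12 higher, 10 lower). The part of these cells in the members' rise was not tested. Npc2, which fell in vivo, fell in this step too (-0.36 ± 0.07, adjusted p = 0.00015). Lamp1, Ctsh, Manba, Ctsz and Tfeb were not called. The call of Galc (-0.26 ± 0.08, adjusted p = 0.01) ended without DIV0 replicate 2 (-0.23, adjusted p = 0.073), and that of Tpp1 ended under 7 of the 8 alternatives. Glb1, Cln3 and Hexa also lost their call without DIV0 replicate 2, and the other 20 higher members kept theirs under all 8.

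**Figure D4:**
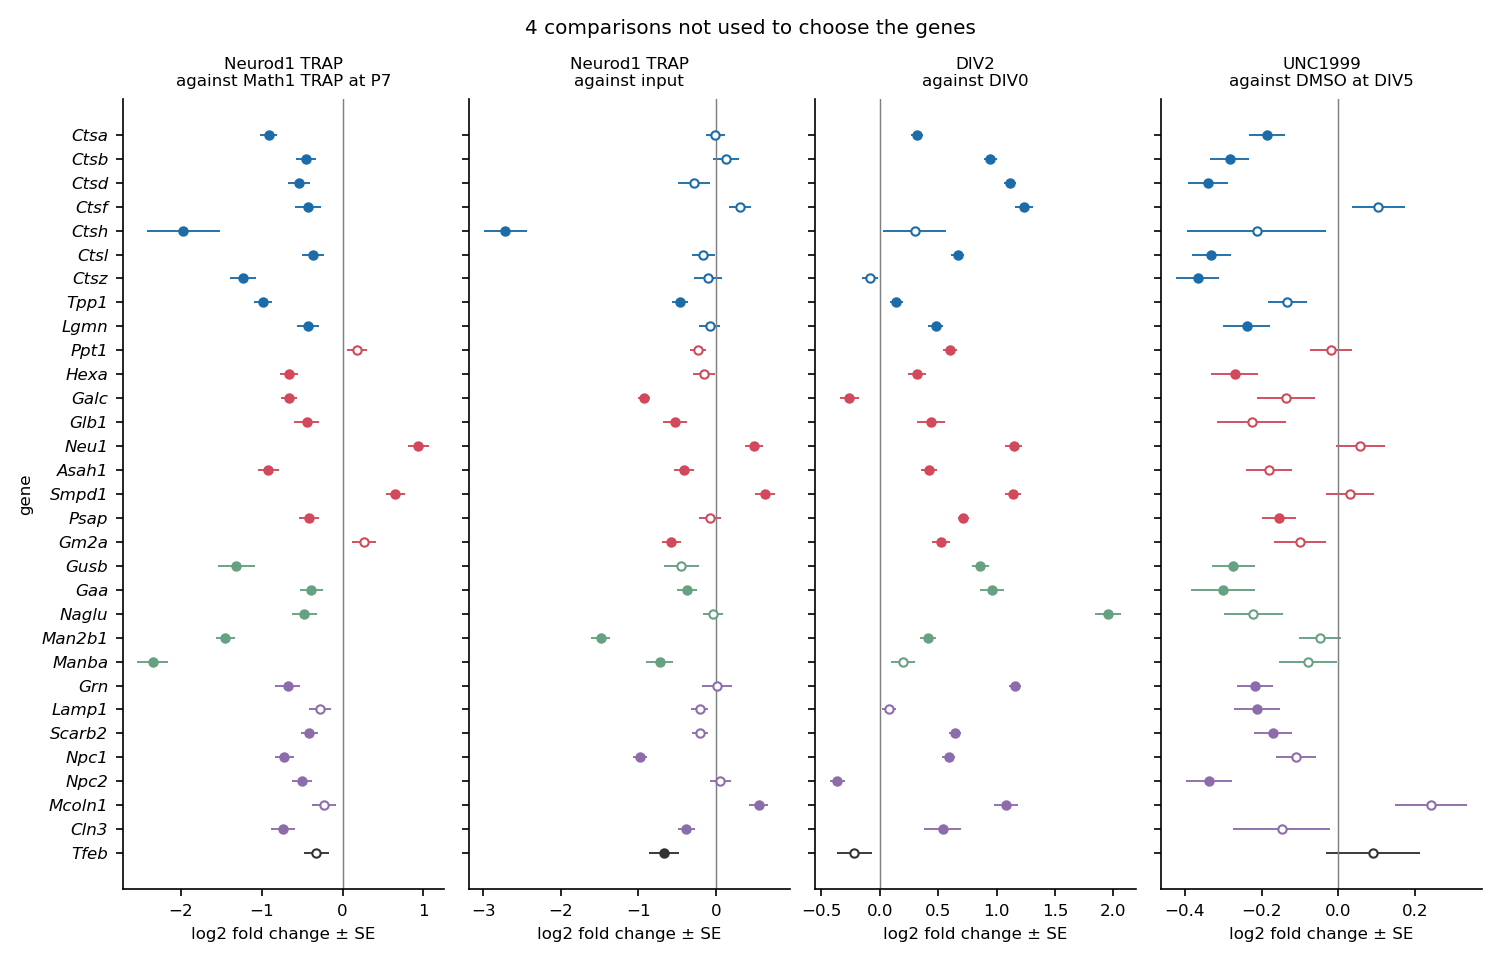
Log2 fold change with SE of each gene (rows, coloured by role) in the 4 tested comparisons with called members. Levels of these groups were in view when the genes were chosen, and each comparison shares libraries with a rise used in the choice. The calls are therefore not independent of the choice. Filled points passed adjusted p under 0.05 in edgeR and open points did not. Neu1 and Smpd1 alone are filled on the right in Neurod1 against Math1 TRAP, where the rest lie mostly left of 0, and the filled points of UNC1999 all lie on the left.

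With UNC1999, a set of members was slightly lower. At DIV5, 14 of 31 were lower with UNC1999 than with DMSO, against 5.53% of all genes, and none was higher, against 6.36% of all genes (by edgeR, with 1 member higher, Mcoln1, at an unadjusted p under 0.05, and 0 also by DESeq2). Changes were small, with a median of -0.18 for the members, 0.00 for all genes, and -0.15 to -0.37 for the 14. Ctsz was 177 and 174 CPM with DMSO and 128 and 141 CPM with UNC1999 (-0.37 ± 0.06, adjusted p = 0.00095). Ctsd was 1397 and 1426 and 1045 and 1161 CPM (-0.34 ± 0.05, adjusted p = 0.00082), and Npc2 191 and 174 and 142 and 144 CPM (-0.34 ± 0.06, adjusted p = 0.0026). The libraries of the 2 treatments did not overlap in these genes. Ctsl, Ctsb, Gusb and Grn completed the 7 members that were lower under all 9 alternatives, and Ctsa, Lgmn, Hexa, Psap, Gaa, Lamp1 and Scarb2 lost their call under at least 1. Leaving out any 1 of the 4 libraries left 8 or 9 members lower, and DESeq2 called 9.

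Smpd1 (0.03 ± 0.06), Neu1 (0.06 ± 0.07), Ctsf (0.10 ± 0.07), Tfeb (0.09 ± 0.12) and Mcoln1 (0.24 ± 0.09) were the members with fold changes above 0, and none was called (Mcoln1 was called higher without DMSO replicate 2). Microglia marker sums were 806 and 820 CPM with DMSO and 636 and 741 CPM with UNC1999, with 4 of 12 lower (Tyrobp by -0.50 ± 0.10, Csf1r by -0.34 ± 0.07) and Cx3cr1 higher (0.82 ± 0.16). In the same libraries 8 of 11 astrocyte markers, 2 of 12 vascular markers and 5 of 8 GABAergic interneuron markers were lower, and 6 of 8 mature granule cell markers were higher. Their part in the members' fall was not tested. The DMSO libraries are also those of the rise from DIV2.

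The Ezh1 cultures gave no call between genotypes. None of the 31 members and none of the 14461 genes tested was called (0% of all genes in either direction) by edgeR, and at an unadjusted p under 0.05 there were 169 genes and no member. DESeq2 called 1 gene and no member. The median log2 fold change of the members was 0.06, with SE from 0.08 to 0.67, and the library sets described above are part of that spread. With the replicate number as a block, the SE were 0.07 to 0.17, the count at an unadjusted p under 0.05 was 1430 genes and 2 members, and no gene was called after adjustment. Within replicates 1 and 2 alone the median was -0.11, and within the others alone 0.09, again without a called gene by edgeR. Leaving out 1 library moved the median to between -0.09 (without Ezh1 cKO replicate 1) and 0.28 (without Ezh1 wt replicate 2), so its sign turned with 1 library. At an unadjusted p under 0.05 there were 573 genes and 0 members in replicates 1 and 2, and 666 genes and 3 members in the others.

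Between the library sets the members stood far apart. Ctsd was 1860.0, 1913, 1743 and 1542 CPM in replicates 1 and 2 (Ezh1 wt, then Ezh1 cKO) and 395, 444, 500.0, 402 and 475 CPM in the others. Ctsb was 1269, 1577, 1447 and 1227 CPM and 399, 424, 446, 411 and 461 CPM, and Gusb 92.9, 105, 93.4 and 80.7 CPM and 26.2, 31.1, 34.01, 30.1 and 32.1 CPM. In 26 of 31 members all 4 libraries of replicates 1 and 2 lay above the other 5, where 27.2% of the 14461 genes tested did, and in 0 members below, where 26.7% of all genes did. The median ratio of the means was 1.83 for the members and 1.02 for all genes, reaching 3.99 for Ctsz and 3.98 for Ctsd. Smpd1 (89.6, 81.6, 77.96 and 78.9 CPM and 86.4, 92.4, 85.1, 81.4 and 95.2 CPM), Mcoln1 and Scarb2 had ratios of 0.93, 0.92 and 0.87, and Neu1 of 1.11. Those ratios ran parallel to the change from DIV2 to DIV5 in other libraries. Over the 31 members the log2 differences had r = 0.86 and rho = 0.87, a description across genes of cultures that share no library. Microglia marker sums were 405 to 585 and 39.3 to 69.0 CPM in the same sets, astrocyte sums 6368 to 12370 and 2739 to 6474 CPM (overlapping), and vascular sums 7771 to 10940 and 4293 to 6811 CPM. The sum of the oligodendrocyte lineage was 1020.0 to 1489 and 238 to 327 CPM, that of GABAergic interneurons 95.3 to 164 and 325 to 408 CPM, and that of mature granule cells 1554 to 2064 and 2164 to 2851 CPM, none of them overlapping. The part of these cells was not tested. The sets are not groups of the study and were not tested, and their origin is not in the labels.

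**Figure D5:**
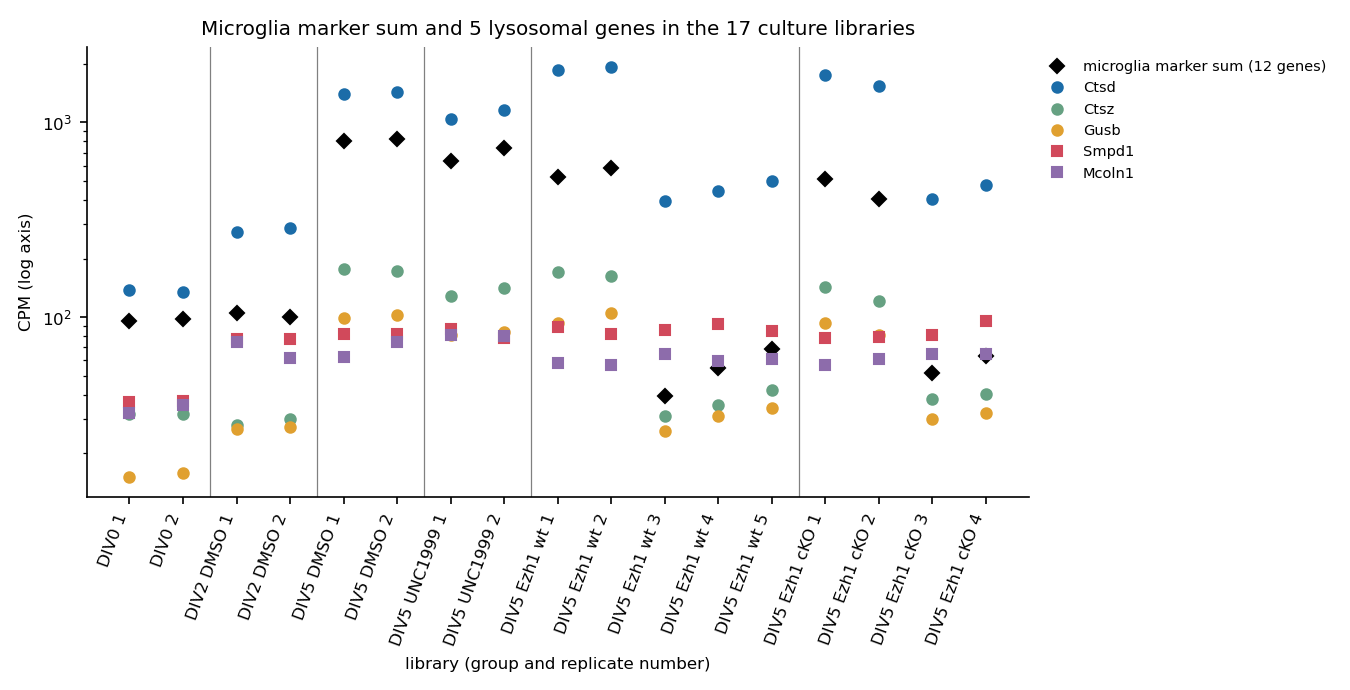
CPM (log axis) of the summed microglia markers (diamonds) and of Ctsd, Ctsz, Gusb (circles), Smpd1 and Mcoln1 (squares) in the 17 culture libraries. Ctsd, Ctsz and Gusb are high in the libraries where the marker sum is 405 CPM or more, and Smpd1 and Mcoln1 stay level from DIV2 on.

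The effects of UNC1999 and of Ezh1 loss were also compared directly, over the 13 DIV5 libraries. No member and no gene was called by edgeR without a block (0% of 15453 genes in either direction). At an unadjusted p under 0.05 there were 247 genes and no member, and DESeq2 called 7 genes and no member. With the replicate number as a block, edgeR called 3 genes higher and no member. In that fit 1486 genes and 4 members (Gaa, Tpp1, Asah1 and Galc) had an unadjusted p under 0.05. The members' median difference was -0.265 with SE of 0.13 to 1.10, and -0.21 with SE of 0.11 to 0.28 in the blocked fit. For Ctsd the difference was -0.35 ± 1.10, and -0.25 ± 0.15 with the block (adjusted p = 0.63). Leaving out 1 library moved the median to between -0.46 (without Ezh1 wt replicate 2) and -0.04 (without Ezh1 cKO replicate 1).

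The rest of the lysosomal system was read from lists of other genes. From P7 to P21, where 38.9% of all genes were higher and 42.5% lower, 21 of 27 other lysosomal enzymes were higher and 2 lower (Hgsnat by 2.17 ± 0.09, Aga by -0.67 ± 0.20). That list is mostly of hydrolases, while Hgsnat is a membrane acetyltransferase. Of other membrane proteins 14 of 18 were higher and 1 lower (Tpcn2 by 2.83 ± 0.21, Cd63 by -2.35 ± 0.17), and of V-ATPase subunits 16 of 18 were higher and 2 lower (Atp6v1g2 by 3.59 ± 0.12, Atp6v0e by -0.47 ± 0.13). Sorting genes (14 higher and 5 lower of 21), transcription factor and lysosomal mTORC1 genes (13 and 4 of 21) and autophagy genes (16 and 7 of 24) were more divided. Sorl1 rose by 2.93 ± 0.20, Rragd by 2.21 ± 0.08 and Atg9a by 2.06 ± 0.10, while Vps35, Zkscan3 and the autophagy receptor Optn changed by -0.88 ± 0.07, -0.63 ± 0.06 and -3.51 ± 0.09.

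From DIV2 to DIV5, 31.1% of all genes were higher and 35.7% lower, beside which the lists are given. Of the other enzymes 26 of 27 were higher, led by Ctss (2.96 ± 0.09), a protease typical of microglia, and of other membrane proteins 13 of 18 were higher (Cd63 by 1.49 ± 0.06). V-ATPase subunits were 5 higher and 8 lower of 18 (Atp6v0e by 1.19 ± 0.08, Atp6v0e2 by -0.59 ± 0.06). Sorting genes were 5 higher and 10 lower of 21 (Nagpa by 1.31 ± 0.12, Borcs5 by -0.72 ± 0.12), and autophagy genes 2 higher and 12 lower of 24 (Wipi1 by 1.69 ± 0.13, Optn by -0.99 ± 0.06). The transcription factor and mTORC1 genes were near the share over all genes, 7 higher and 7 lower of 21 (Mitf by 0.59 ± 0.14, Mtor by -0.58 ± 0.07).

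On Neurod1 ribosomes the V-ATPase, sorting, transcription factor and mTORC1, and autophagy lists each had more higher than lower genes. The list of other enzymes had more lower ones. Against input, where 36.6% of all genes were higher and 41.2% lower, 16 of 27 other enzymes were lower and 1 higher (Naaa by -1.78 ± 0.09, Ctso by -2.01 ± 0.14, Ctsc by -2.22 ± 0.21). V-ATPase subunits were 14 higher and 2 lower of 18 (Atp6v1e1 by 1.07 ± 0.06) and sorting genes 13 and 5 of 21 (Rab7 by 0.84 ± 0.07). Transcription factor and mTORC1 genes were 14 and 6 of 21 (Lamtor2 by 1.44 ± 0.12) and autophagy genes 19 and 3 of 24 (Sqstm1 by 1.09 ± 0.07). These counts are on the TMM scale. With UNC1999, where 5.53% of all genes were lower and 6.36% higher, 7 of the 27 other enzymes were lower and 1 higher (Ctss by -0.72 ± 0.07, Hgsnat by 0.57 ± 0.05), and no V-ATPase or sorting gene was lower.

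Some members share exon sequence with other genes in the GENCODE annotation of the same build, and the sources used here do not say whether counting used the strand. A same-strand gene, Gm49369, covers 31.5% of the exon bases of Ctsd. Opposite-strand exons cover 28.2% of Ctsl (Gm47123), 16.3% of Ctsb (Fdft1), 13.5% of Ctsa (Pltp) and 13.2% of Cln3 (Apobr). These are shares of annotated bases and not of counts, and how far they affect the counts of these genes was not tested.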

How the data were processed

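RNA was poly(A)-selected, made into libraries with a NEBNext Ultra II kit and sequenced as 75-bp reads, per the labels' protocols. Values are estimated counts for each gene, which the authors made with Salmon 0.8.2 and mm10, per the submitters' processing notes; the values are whole numbers as deposited. Whether counting used the strand is not given in the sources used here. Of 24100 Entrez genes, 24045 had a symbol; the 55 others held 0.0361% of the counts. In the Ezh1 libraries 1041 genes, none a member, are blank and were not tested there. The same genes were left out of the CPM and marker sums of all libraries.

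Counts were tested with edgeR 4.0.16 (R 4.3.3, limma 3.58.1): filterByExpr (minimum count 10, total 15), TMM scaling, robust quasi-likelihood fits, two-sided tests, Benjamini-Hochberg adjustment over all genes tested and calls at adjusted p under 0.05. SE were computed from the fold change and its F value. CPM used TMM factors over all 39 libraries. The inputs, with 1 library per age, were compared as ratios. The fits were tested on simulated counts. Alternatives were library-size scaling, DESeq2 1.42.0, no filter, a replicate block, other sets of libraries and each library left out.

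The members and gene lists were chosen with earlier results of these data known. All 31 members are named. Of each list, at most 3 genes are named: the smallest adjusted p among called genes in tests, and the largest rise and fall, at a mean of at least 5 CPM, in descriptions. Same-number Ezh1 wt and Ezh1 cKO libraries had deviations correlated at 0.83 to 0.89 in all 4 pairs. Ezh1 cKO replicates 1 and 4 correlated best with Ezh1 wt replicates 2 and 3, however, so these values do not show that single numbers are pairs. The labels give no pairing, and the block changed no call of a member there.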

Additional observations from a re-analysis of the deposited data

Results flagged for a closer look

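Each of the 186 combinations of a member and a group of 4 or 5 libraries was checked for a library set apart from the others of its group by Dixon's criterion, which chance meets in about 5% of groups. It was met in 7. In Math1 TRAP, Ctsz was 24.86 CPM in replicate 1 (30.24 to 31.34 in the others), and Smpd1 was 33.34 CPM in replicate 3 (24.34 to 25.04 in the others). In Neurod1 TRAP at P7, replicate 1 was low for Galc, at 10.44 CPM (12.63 to 13.29 in the others), and for Manba, at 1.038 CPM (1.454 to 1.585). Glb1 was 5.275 CPM in P7 replicate 2 (8.853 to 10.24 in the others). At P21, Ctsz was 21.43 CPM in replicate 5 (15.96 to 17.33 in the others). In Ezh1 wt cultures, Npc1 was 134.0 CPM in replicate 2 (77.43 to 83.58 in the others). Replicate 1 of Neurod1 TRAP at P7 also stands behind the added calls of Ppt1 and Gm2a against Math1 TRAP described above.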

How the results depend on the processing

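Scaling by library size alone moved the median of all genes from -0.07 to -0.463 in Neurod1 TRAP against input, where it gave 0 members higher and 25 lower, turned Npc2 to -0.346 (adjusted p = 0.026) and put 25.6% of calls on the higher side in place of 47.1%. The same scaling gave member medians of 1.195 for P21 against P7, 0.363 for P21 against P12 (35.7% of calls higher in place of 49.8%) and 1.548 for DIV5 against DIV2 (57.4% in place of 46.6%), as all-gene medians moved to -0.224, -0.152 and 0.095. For UNC1999, DESeq2 called 9 members lower and 493 genes higher and 453 lower, in place of 1016 and 883, and a fit of the 4 libraries alone put 43.8% of calls on the higher side in place of 53.5%. With Math1 replicates 1 and 2 alone, 4 members were higher in Neurod1 TRAP. The cause of these shifts was not tested.

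Leaving out 1 library at a time gave, for Neurod1 against Math1 TRAP, 2 to 4 members higher and 21 to 25 lower, and for Neurod1 TRAP against input 3 to 6 higher and 9 to 15 lower. It gave 20 to 23 higher and 1 to 3 lower for DIV2 against DIV0, and 0 to 1 higher and 8 to 9 lower for UNC1999. The Ezh1 comparison and the comparison of effects stayed at 0 members, with medians of -0.088 to 0.277 and -0.462 to -0.044. Member medians ranged from 1.258 to 1.481 (P21 against P7), 0.909 to 1.119 (P12 against P7), 0.478 to 0.565 (P21 against P12) and 1.369 to 1.543 (DIV5 against DIV2).

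With the replicate number as a block, Neurod1 against Math1 TRAP gave 2 members higher and 26 lower, DIV2 against DIV0 24 and 2, UNC1999 0 and 11, P21 against P7 27 and 2, and DIV5 against DIV2 28 and 1. Outside the Ezh1 cultures the numbers are shared by name only (same-number correlations from -0.32 to 0.23). There, as in the Ezh1 cultures, not every library correlated best with its own number. Crossing the numbers of DIV2 and DIV5, whose same-number correlation was -0.29 and which was chosen after seeing the data, gave 28 members higher and 1 lower, with 5063 and 5817 genes. Precision is limited by 2 libraries per culture group and 1 input per age, and for Ctsh by low counts.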
